A study of Mus musculus with 20 samples.

Results

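The comparison described here is the replication block in maternal pronuclei of mouse zygotes whose oocytes lacked Tet3, made of 2 aphidicolin libraries and 2 mock libraries among the 20 libraries of the series. Until the first cell division, the genomes of egg and sperm sit in separate nuclei, the pronuclei. The members were found by their labels: genotype CKO, maternal origin, and aphidicolin or mock treatment. CKO females carried Zp3-Cre, which acts in growing oocytes, with 1 floxed and 1 deleted Tet3 allele, and WT females carried the floxed alleles without a stated Cre. All females were 7 to 10 weeks old and superovulated, all eggs were inseminated with sperm of C57BL/6J males, and the deletion was therefore on the female side alone. Treated zygotes were moved into 3 µg/ml aphidicolin at 5 hours after fertilization. Pronuclei of both treatments were isolated at 12 hours and frozen at 13 hours, and the parents were told apart by distance from the second polar body and by pronuclear size. The oocyte libraries used below as the starting level are labelled WT, so no measured oocyte carries the deletion. Nothing in the files measures Tet3 RNA or protein, so the loss of Tet3 was not checked here.

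DNA methylation at CpG sites is copied to the new strand after replication by the maintenance methyltransferase, and where that copying fails the level falls with each round of replication. Tet3 is the dioxygenase that oxidizes 5-methylcytosine in the zygote, a route that needs no replication. Aphidicolin inhibits replicative DNA polymerases. The comparison of treated with mock pronuclei without maternal Tet3 asks how much of the loss from the oocyte level goes with replication when the oxidation route is removed. Bisulfite reads score 5-methylcytosine and 5-hydroxymethylcytosine alike, so each level is the sum of both.

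Methylation was read by reduced representation bisulfite sequencing, in which MspI digestion enriches fragments rich in CpG sites. The mock libraries held 63856256 and 67247224 CpG calls and the aphidicolin libraries 45229988 and 39786407. Autosomal positions with 5 or more reads numbered 1409394 and 1382020 in the mock libraries and 1015730 and 953841 in the aphidicolin libraries. The 522895 positions that passed in all 4 formed the base of all values, with a median depth of 46 and 49 reads in mock and 37 and 35 reads in aphidicolin. These positions gave 107549 tiles of 100 bp and 77759 tiles of 1000 bp with at least 2 positions each, and the median tile of either size held 3. A tile level is the percentage of methylated calls over all calls in the tile, and a difference is given in percentage points. Depth moved with treatment. So did the order of chromosomes in the deposited files (sorted in both mock libraries, unsorted in both aphidicolin libraries) and the share of calls on the mitochondrial genome, which was 1.19% and 1.17% in mock and 2.68% and 2.79% in aphidicolin. Methylated calls made up 0.259% and 0.281% of mitochondrial calls in mock and 0.176% and 0.19% in aphidicolin. Differences of preparation or processing between the treatments cannot be told apart from the treatment itself.

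Over all positions, methylation was slightly higher with aphidicolin. The mean level was 15.1% and 16.0% in the mock libraries and 17.7% and 17.2% in the aphidicolin libraries. Both treated libraries lay above both mock libraries, by 1.18 to 2.55 points between single libraries and by 1.86 points between the group means (15.6% ± 0.635 against 17.4% ± 0.338, SD, n = 2 each). With 2 libraries against 2, the exact two-sided permutation test gave p = 0.333, the smallest it can reach (0.583 after Benjamini-Hochberg adjustment over the 7 exact tests made). The labels do not say that replicates came from separate animals, so these spreads may be technical. In each library, 74.8% to 79.0% of the positions were at 0%. Fully methylated positions made up 6.91% and 8.96% in mock and 14.4% and 14.6% in aphidicolin. On chromosome X, which the base excludes, the 11642 positions averaged 15.6% and 19.3% in mock and 18.9% and 19.2% in aphidicolin, and there the groups overlapped.

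The difference stood where the oocyte genome is methylated. Tiles were sorted by the gamete libraries alone, which take no part in the contrast: at least 75% in both gametes, at least 75% in oocytes and at most 25% in sperm, the converse, or at most 25% in both. In the 12041 tiles of 100 bp methylated in both gametes, mock pronuclei averaged 80.5% and 82.3% and aphidicolin pronuclei 94.4% and 94.7%. The treated libraries were 12.1 to 14.2 points higher, with a mean difference of 13.1 points (81.4% ± 1.25 against 94.6% ± 0.199, SD, n = 2 each; exact permutation p = 0.333, adjusted 0.583). Oocytes averaged 96.3% in the same tiles. The distance from oocytes was -14.9 points in mock pronuclei and -1.78 points in aphidicolin pronuclei. In tiles of 1000 bp the difference was 13.6 points.

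Tiles methylated in oocytes only gave a similar mean with a wider spread. Sperm DNA could not raise the level in this class but could lower it: CKO paternal pronuclei averaged 6.01% to 12.5% where covered. The 2329 tiles averaged 74.9% and 76.8% in mock and 84.5% and 91.5% in aphidicolin. In tiles methylated in sperm only, the same libraries averaged 9.10% and 10.3% in mock and 9.77% and 5.77% in aphidicolin. The lower treated library thus had the higher level there, and the lower mock library the lower. The part of sperm DNA was not tested. The difference was 12.2 points, with single library differences from 7.75 to 16.6 points (exact permutation p = 0.333, adjusted 0.583). Here the 2 treated libraries were farther apart (SD 4.91 points) than the mock libraries (SD 1.32). From an oocyte level of 94.9% the distance was -6.90 points in aphidicolin pronuclei and -19.1 points in mock pronuclei.

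Tiles that oocytes leave unmethylated showed no such shift. In the 19310 tiles methylated in sperm only, mock libraries averaged 9.10% and 10.3% and aphidicolin libraries 9.77% and 5.77%, and the groups overlapped (difference -1.93 points, single library differences from -4.53 to 0.673, exact permutation p = 0.667, adjusted 0.933). Without aphidicolin replicate 2 that difference was 0.0697 points. In the 53078 tiles unmethylated in both gametes, mock libraries averaged 1.18% and 1.87% and aphidicolin libraries 1.46% and 1.38%, a difference of -0.108 points (exact permutation p = 1, adjusted 1) that was 0.237 points without mock replicate 2.

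**Figure D1:**
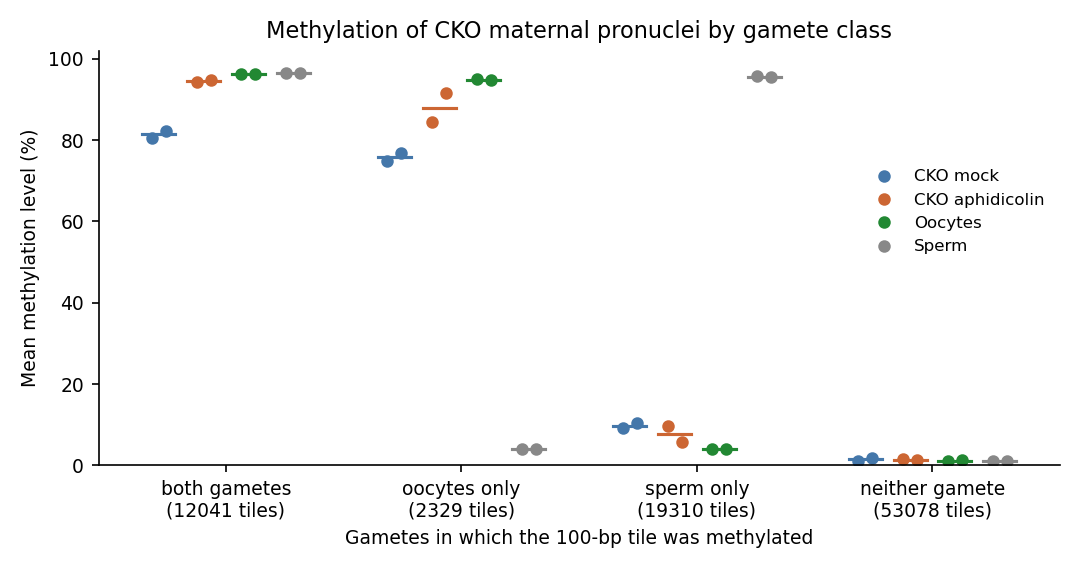
Mean methylation level (%) of 100-bp tiles in each gamete class; each point is 1 library and each bar the mean of 2. In the first pair of classes both aphidicolin points (84.5% to 94.7%) lie between the mock points (74.9% to 82.3%) and the oocytes (94.9% and 96.3%), and in the other pair pronuclei stay at 10.3% or less.

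Sperm-only tiles and chromosome Y were also read as possible signs of DNA of the other parent in a maternal library. Oocytes averaged 4.00% in sperm-only tiles and sperm 95.7%. WT maternal pronuclei averaged 3.72% to 5.05% over those of the same tiles that they covered, so that all 4 CKO maternal libraries stood above both. Chromosome Y held 0.00297% and 0.000296% of all calls in the mock libraries and 0.00163% and 0.000093% in the aphidicolin libraries, beside 0.000034% and 0.000044% in oocytes and 0.00597% to 0.0186% in CKO paternal pronuclei. WT maternal pronuclei had 0.000692% and 0.000198% in mock and 6.77e-05% and 0.000508% in aphidicolin, also above both oocyte libraries. Replicate 1 was therefore above replicate 2 in both treatments by chromosome Y, while by sperm-only tiles mock replicate 2 was the highest. CKO paternal pronuclei themselves averaged 66.2% and 65.6% in mock and 96.3% and 96.4% in aphidicolin at the tiles methylated in both gametes that they covered. The replicate 2 libraries had the fewer chromosome Y calls of each treatment. Between them the difference was 12.4 points in tiles methylated in both gametes and 14.7 points in oocyte-only tiles. By sperm-only tiles the same pair was the most unequal, with 10.3% in mock and 5.77% in aphidicolin. Between the replicate 1 libraries the differences were 13.9 and 9.62 points. The part of paternal DNA in these differences was not tested.

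The difference was larger at higher oocyte levels up to the step from 80% to 90%. Tiles were grouped by oocyte level in steps of 10 points. Between 20% and 30% in oocytes (1811 tiles, mean 24.7%), mock libraries averaged 20.8% and 22.2% and aphidicolin libraries 24.1% and 24.9%. Between 60% and 70% (906 tiles, mean 64.9%), they averaged 49.7% and 50.2% against 60.4% and 60.6%. Between 80% and 90% (1522 tiles, mean 85.5%), they averaged 67.8% and 71.0% against 82.5% and 84.0%, the largest difference of the steps at 13.8 points. At 90% or more (13095 tiles, mean 98.1%), they averaged 81.5% and 83.2% against 94.7% and 96.1%, a difference of 13.1 points. From 20% upward both treated libraries were above both mock libraries in each of the 8 steps, and the mock mean was 82.6% to 87.9% of the aphidicolin mean. Below 20% the groups overlapped. The steps share libraries and are no replicates of each other.

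**Figure D2:**
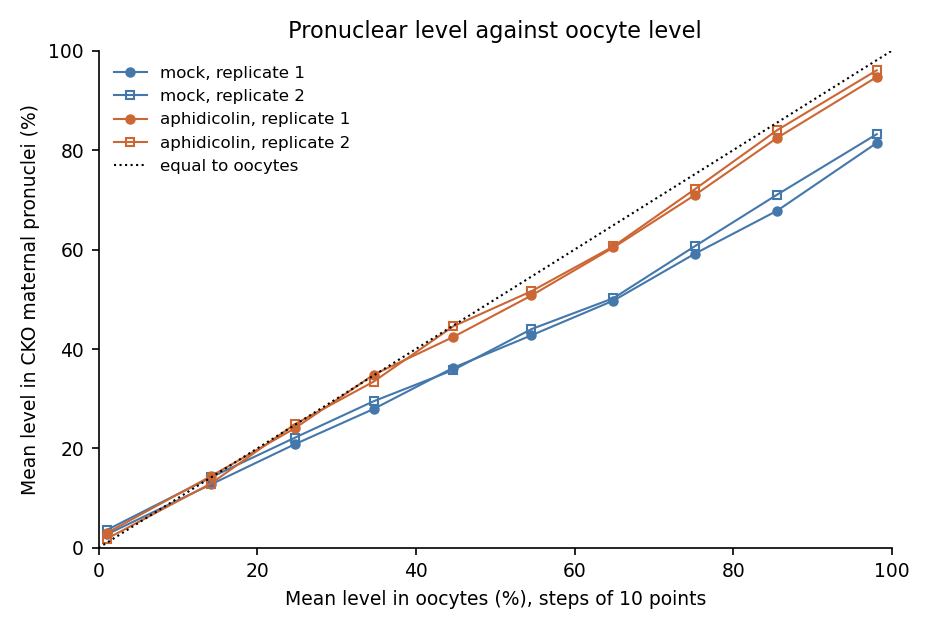
Mean level in CKO maternal pronuclei (%) against the mean level in oocytes (%), for 100-bp tiles in steps of 10 points of oocyte level; each line is 1 library and the dotted line marks equality with oocytes. The aphidicolin lines lie close to equality (94.7% and 96.1% at an oocyte mean of 98.1%), and the mock lines lie below it in each step from 20% upward.

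Mock pronuclei had more partly methylated tiles than treated ones, and also somewhat more tiles of very low level. In the 15193 tiles of 100 bp at 75% or more in oocytes, the median level was 85.5% and 90% in mock and 100% in both aphidicolin libraries. A level of 95% or more was reached by 34.3% and 43.3% of tiles in mock and by 79.9% and 83.3% in aphidicolin. Between 40% and 80% lay 33.3% and 27.8% of tiles in mock and 9.64% and 7.81% in aphidicolin. Below 20% lay 3.40% and 3.84% in mock and 2.05% and 1.74% in aphidicolin. The lower decile of tile levels was 49.4% and 50% in mock and 72.1% and 79.1% in aphidicolin. Oocytes had 75.6% of these tiles at 95% or more in both libraries and none below 40%; the tiles were chosen for their oocyte level.

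**Figure D3:**
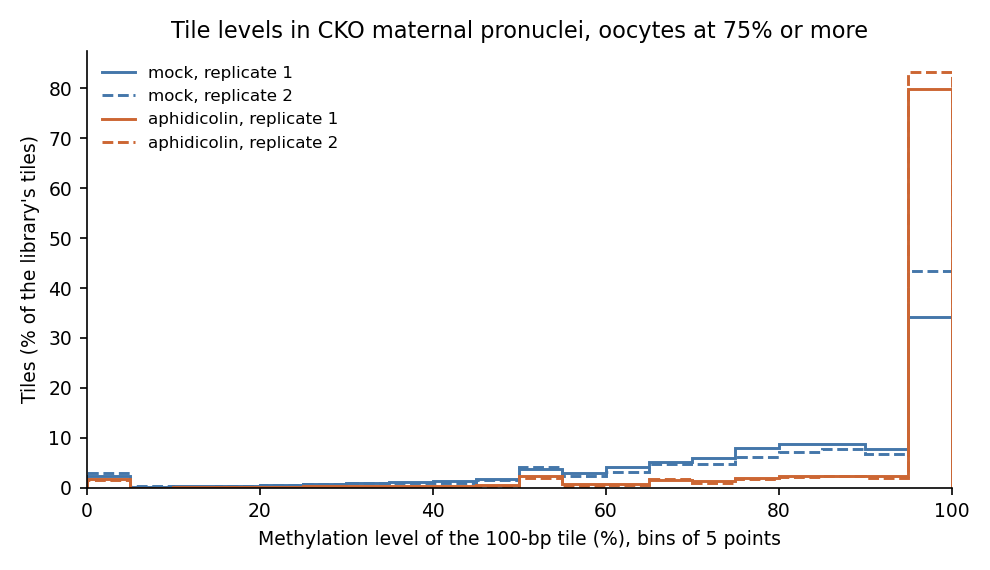
Share of 100-bp tiles (%) by methylation level in bins of 5 points, for the 15193 tiles at 75% or more in oocytes; each outline is 1 library. The last bin holds 34.3% and 43.3% of tiles in mock and 79.9% and 83.3% in aphidicolin, and the mock outlines are higher over most bins between 40% and 95%.

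All 19 autosomes showed the difference in oocyte-methylated tiles. It ran from 11.4 points on chromosome 19 (534 tiles, mock 81.2% and 82.7%, aphidicolin 92.6% and 94.1%) to 15.5 points on chromosome 12 (601 tiles, mock 78.4% and 78.6%, aphidicolin 92.9% and 95.1%). The groups did not overlap on any of the autosomes, which share libraries and are no replicates of each other.

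Tiles with more covered CpG positions had smaller differences than those with fewer. Positions were counted where all 4 libraries had 5 reads, on either strand, so the count is not CpG density. Among tiles methylated in both gametes, the difference was 13.9 points with 2 positions per tile (7248 tiles), 12.4 with 3, 11.4 with 4 to 5, 10.6 with 6 to 8 and 8.56 with 9 to 12 (39 tiles). Mock levels carried this order, from 79.7% and 81.3% in tiles with the fewest positions to 85.2% and 88.7% in those with the most, while aphidicolin levels stayed between 94.2% and 96.4%. Tiles with more positions were also deeper, and the difference went from 14.3 points at 10 to under 30 calls in the shallowest library to 10.9 points at 250 to under 500 calls. Within tiles of 120 to under 250 calls the differences were 13.3, 11.99, 11.2 and 10.7 points for 2, 3, 4 to 5 and 6 to 8 positions. The single library differences of neighbouring bins overlapped, and no test was made of this order.

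Tiles with less methylation in WT mock maternal pronuclei, which are outside the contrast, had the larger differences in CKO pronuclei. Of the tiles at 90% or more in oocytes, those below 50% in WT mock (622 tiles) averaged 66.1% and 67.0% without aphidicolin in CKO pronuclei and 85.7% and 86.3% with it, a difference of 19.5 points. Those at 95% or more in WT mock (3234 tiles) averaged 85.7% and 87.5% without it and 95.7% and 97.4% with it, a difference of 10.0 points. Tiles low in WT mock were therefore low in CKO mock too, though by far less. The tiles were sorted by the WT mock level itself, and single tile levels were only weakly shared between libraries. The gap between WT and CKO levels in these groups thus cannot be read as a difference of genotype.

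**Figure D4:**
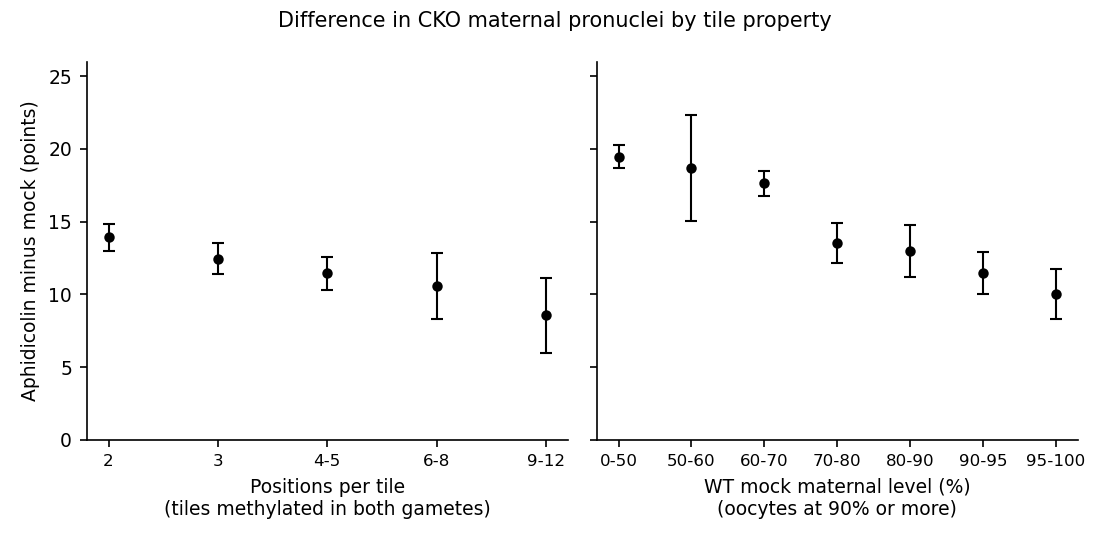
Aphidicolin minus mock (percentage points) in CKO maternal pronuclei by covered CpG positions per 100-bp tile (tiles methylated in both gametes) and by level in WT mock maternal pronuclei (tiles at 90% or more in oocytes). Points are differences of group means and bars run from the lowest to the highest of the 4 single library differences; the points fall from 13.9 to 8.56 on the left and from 19.5 to 10.0 on the right.

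Levels of single tiles were only weakly shared between libraries. Across 11349 tiles at 90% or more in oocytes, Pearson's r was 0.155 between the mock libraries and 0.223 between the aphidicolin libraries. CKO mock and WT mock libraries correlated at 0.182 to 0.199. These values describe tiles of the same libraries, which share oocyte level, sequence and low input, and at these sizes they are no finding. Within a library, adjacent 100-bp tiles correlated at 0.279 to 0.402 (1230 pairs), and tiles 10.1 to 50 kb apart at 0.0208 to 0.0513 (10127 pairs).

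The strands of single CpG sites were less alike in mock pronuclei. Of 27152 sites with a neighbouring position on each strand, 2208 were at 75% or more in oocytes. The mean absolute difference between the strands was 22.3 and 21.1 points in mock and 10.9 and 7.68 points in aphidicolin, against 5.72 and 5.90 points in oocytes. Mean levels in mock were 80.5% and 82.8% on the plus strand and 80.6% and 83.4% on the minus strand. Levels away from 0% and 100% allow larger strand differences, and reads of the strands come from separate molecules, so this measure was not separated from the level itself.

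Few single tiles were called. The test was a quasi-binomial model with Benjamini-Hochberg adjustment over all tiles, and a call needed both an adjusted p under 0.05 and 10 points or more between the groups. In 100-bp tiles it called 2 higher (0.00186% of 107549) and 0 lower (0%) with aphidicolin, while 1117 higher and 287 lower had an unadjusted p under 0.05. In 1000-bp tiles it called 12 higher (0.0154% of 77759) and 1 lower (0.00129%), with 1822 higher and 485 lower at an unadjusted p under 0.05. Of the 12, 2 were methylated in oocytes only, 1 in sperm only, 1 in neither gamete and 8 fell in none of the 4 classes. The class that carried the largest mean difference, methylated in both gametes, thus held 0 calls at either size. Of its 12041 tiles of 100 bp, 379 were higher and 20 lower at an unadjusted p under 0.05. Taken over both directions, each of these unadjusted counts was below the share of tiles that a threshold of 0.05 passes where nothing differs. Call counts depended strongly on the model. Of the 107549 tiles of 100 bp, limma on arcsine square roots called 509 higher and 357 lower. On log2 ratios limma called 0 in either direction. The counts of higher tiles were 1, 1, 4 and 1 for 100 bp and 7, 5, 14 and 9 for 1000 bp without mock replicate 1, mock replicate 2, aphidicolin replicate 1 and aphidicolin replicate 2. The 1000-bp tile called lower lost its call without mock replicate 1, mock replicate 2 or aphidicolin replicate 1.

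A count without a model shows the same asymmetry. Both treated libraries lay beyond both mock libraries by a mean of 10 points or more in 7956 of 107549 tiles on the higher side (7.4%) and 3591 on the lower side (3.34%). In tiles methylated in both gametes these shares were 31.1% and 1.25%, and in tiles methylated in oocytes only 30.9% and 2.19%. In sperm-only tiles the lower side was the larger, with 3.89% higher and 9.25% lower. In 1000-bp tiles the shares were 11.8% higher and 5.15% lower over all tiles, and 37.3% and 0.989% in tiles methylated in both gametes. These counts carry no test.

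The deepest called tile also had the tightest replicates. It lies at chr2:98506001-98507000 (mm9) and holds 3 positions with at least 132734 calls in each library. The median 1000-bp tile held 152 to 205 calls per library. Whether reads at this tile and the other deepest tiles come from 1 place in the genome or from several copies was not tested. The level of this tile was 52.3% and 53.7% in mock and 72.7% and 72.1% in aphidicolin, a difference of 19.4 points. The quasi-binomial model gave an adjusted p of 1.6e-180, from a dispersion of 35.97 where the tile's own value was 147.5, so that figure reflects depth as well as replicates. Oocytes averaged 72.0% and 68.4% there, and the WT maternal libraries 49.3% and 51.1% in mock and 70.8% and 73.5% in aphidicolin. It was the only named call that stood without each of the 4 libraries in turn, and it was lost with limma on log2 ratios (adjusted p = 0.727). Nearby, chr2:98502001-98503000 (4 positions, at least 8313 calls) had 50.2% and 55.6% in mock and 69.6% and 72.8% in aphidicolin (adjusted p = 1.52e-05, quasi-binomial model). Its call was lost without mock replicate 1 (adjusted p = 0.176, quasi-binomial model) or without aphidicolin replicate 2 (adjusted p = 0.0896).

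The other tiles named for depth, among those at 25% or more in oocytes, were not called. At chr11:3093001-3094000 mock levels were 50.9% and 54.2% and aphidicolin levels 53.1% and 59.99%, and the groups overlapped. At chr11:3050001-3051000 they were 60.7% and 66.0% against 69.1% and 76.1%, with no overlap and a difference of 9.23 points. At chr13:120277001-120278000 they were 71.3% and 67.0% against 62.9% and 71.2%, so that the 5 deepest tiles did not move as 1 group. Oocytes were at 58.9% to 70.01% in these tiles.

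Both called 100-bp tiles carried methylation in oocytes, 1 of them at 75% or more, and were almost unmethylated in sperm. At chr5:31395301-31395400 (9 positions) mock levels were 30.8% and 5.26% and both aphidicolin levels 100%, where oocytes had 98.1% and 94.5% and sperm 0% (adjusted p = 0.000492, quasi-binomial model). At chr17:46633701-46633800 (13 positions) mock levels were 9.95% and 43.9% and aphidicolin levels 90.8% and 90.6%, where oocytes had 48.0% and 42.1%, so the treated level lay above the oocyte level (adjusted p = 0.0108, quasi-binomial model). WT maternal pronuclei had 100% and 72.3% in mock at the former, far above CKO mock, and 100% in the 1 aphidicolin library with reads there. At the latter they had 15.0% and 71.3% in mock and 100% and 95.3% in aphidicolin. The first call was lost without mock replicate 2 (adjusted p = 0.842) and the second without mock replicate 1 (adjusted p = 1) or either aphidicolin library (adjusted p = 0.172 and 0.943, quasi-binomial model).

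Among the 10 called 1000-bp tiles whose groups did not overlap, several had libraries of 1 group far apart. At chr14:103498001-103499000 the mock levels were 8.01% and 5.24% and the aphidicolin levels 9.18% and 81.7%, so that 1 library made the difference of 38.8 points. At chr1:104859001-104860000 they were 10.2% and 4.02% against 50.9% and 99.8%, and at chr4:141795001-141796000 they were 57.7% and 11.7% against 89.1% and 64.4%. The model used 1 dispersion for tiles of like depth and let a tile's own spread count for nothing, since the estimated prior had infinite degrees of freedom. At chr14:103498001-103499000 the tile's own dispersion was 635 and the value used 50.5. Calls at such tiles took no account of the spread between their own libraries.

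The other called tiles had pairs of mixed tightness. At chr11:83665001-83666000 (24 positions) mock levels were 1.93% and 4.70% and aphidicolin levels 39.5% and 41.3%, with oocytes at 32.5% and 23.7%. The tile before it, chr11:83664001-83665000, had 0.802% and 0.0642% in mock and 31.2% and 52.3% in aphidicolin, with oocytes at 13.1% and 4.71%. At chr13:49516001-49517000 mock levels were 33.4% and 8.40% and aphidicolin levels 61.4% and 64.3%, with oocytes at 72.3% and 85.0%. At chr17:46633001-46634000, around the called 100-bp tile, they were 22.2% and 36.4% against 79.3% and 82.8%. The last named tile, on chromosome 18, had 25.97% and 46.2% against 100% and 99.9%. Each of these 5 calls was lost without at least 1 of the 4 libraries.

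A single tile was called lower. At chr5:37778001-37779000 (10 positions) mock levels were 89.8% and 93.4% and aphidicolin levels 9.24% and 35.9%, a difference of -69.1 points (adjusted p = 0.00594, quasi-binomial model). Oocytes had 54.9% and 52.6% there, so the mock libraries were above the oocyte level. The call was lost without mock replicate 1 (adjusted p = 0.176), mock replicate 2 (0.793) or aphidicolin replicate 1 (1.00, quasi-binomial model). No 100-bp tile was called lower; the lowest adjusted p among those with groups apart was 0.128, at chr9:54996801-54996900, with 100% and 83.3% in mock and 0% in both aphidicolin libraries. Of the next 4 by p, chr5:37778101-37778200 lies in the called 1000-bp tile (100% and 90.7% against 18.5% and 11.8%), and chr7:123291701-123291800, chr7:31604901-31605000 and chr9:77262201-77262300 had adjusted p values of 0.740 or above. Their mock means were 68.8%, 94.1% and 99.7% and their aphidicolin means 17.8%, 22.0% and 7.78%.

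In oocyte-methylated tiles the treatment difference was close in size to that of WT maternal pronuclei. Over the 6580 oocyte-methylated 100-bp tiles that qualified in all 8 maternal libraries, CKO pronuclei averaged 79.5% and 81.7% in mock and 92.5% and 94.2% in aphidicolin, a difference of 12.8 points. WT pronuclei averaged 79.6% and 82.4% in mock and 94.1% in both aphidicolin libraries, a difference of 13.1 points (single library differences from 11.7 to 14.6). The CKO difference minus the WT difference was -0.361 points, exact permutation p = 1 over 36 arrangements. Leaving out single libraries moved it between -1.78 and 1.05 points, with a positive sign without CKO mock replicate 2 (0.729), CKO aphidicolin replicate 1 (0.535) or WT mock replicate 1 (1.05). A p that misses the threshold does not show that the genotypes respond alike. In sperm-only tiles (10531 in all 8 libraries) the group means went opposite ways, and the CKO groups overlapped. WT averaged 3.43% and 3.76% in mock and 4.87% and 5.03% in aphidicolin, while CKO averaged 8.89% and 10.3% in mock and 9.30% and 5.45% in aphidicolin. The differences were 1.36 and -2.20 points, and the CKO difference minus the WT difference was -3.56 points. The exact permutation of treatment labels within genotype gave p = 0.111, outside the 7 tests adjusted together. Its reference values include the treatment effect itself. The exact permutation of genotype labels within treatment, an alternative chosen after seeing the data, gave p = 0.333. Tile by tile, the model called a larger change toward methylation in CKO at 0 of 55086 tiles of 100 bp (0%) and a smaller one at 1 (0.00182%). At an unadjusted p under 0.05 there were 144 larger and 227 smaller. In 1000-bp tiles the calls were 5 (0.0108%) and 2 (0.0043%) of 46472, with 204 larger and 388 smaller at an unadjusted p under 0.05. Over both directions, these unadjusted counts too were below the share that a threshold of 0.05 passes where nothing differs. None of the 8 called tiles held its call without each of the 8 libraries in turn.

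Against CKO paternal pronuclei the maternal difference was the smaller. Over the 6346 tiles methylated in both gametes that qualified in all 8 CKO libraries, maternal pronuclei averaged 80.4% and 82.9% in mock and 94.6% and 95.1% in aphidicolin, a difference of 13.2 points. Paternal pronuclei averaged 66.7% and 65.5% in mock and 96.3% in both aphidicolin libraries, a difference of 30.3 points (single library differences from 29.6 to 30.9). The maternal difference was lower by 17.1 points, and without single libraries by 15.9 to 18.3 points. The exact permutation test of treatment labels within parent gave p = 0.333 (adjusted 0.583). That arrangement counts the treatment effect itself in its reference values, so parent labels were also permuted within treatment, an alternative chosen after seeing the data, and gave an exact p = 0.0556. The parents differed in mock pronuclei by more than in treated ones. Neither test passed 0.05, and 0.0556 is the smallest exact two-sided p that 36 arrangements allow.

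**Figure D5:**
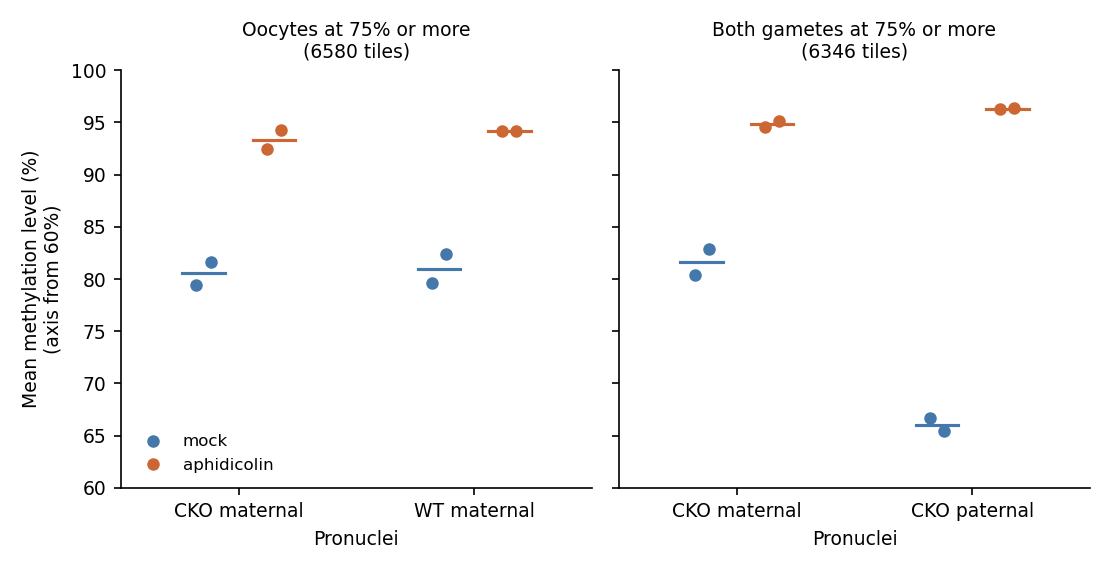
Mean methylation level (%, axis from 60%) in mock and aphidicolin pronuclei, CKO maternal beside WT maternal (left, 6580 tiles) and beside CKO paternal (right, 6346 tiles); each point is 1 library and each bar the mean of 2. The maternal genotypes show differences of 12.8 and 13.1 points, and the paternal pronuclei one of 30.3 points.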

How the data were processed

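Reads had been processed with Trim Galore and Bismark 0.10.1 on the mm9 build, per the submitters' processing notes. The deposited files give methylated and unmethylated counts per CpG position with no header, and the deposited percent equals methylated counts over all counts in every row; removal of duplicates is not given in the sources used here. Per the labels, libraries typically took 21 PCR cycles from about 20 pronuclei and kept fragments of 150 to 500 bp, so reads are not independent molecules. Positions needed 5 reads in all 4 libraries, tiles 2 positions, and a gamete tile the same in each gamete library. Library means were compared by exact two-sided permutation over libraries. Tiles were tested by a quasi-binomial model in R 4.3.3, with dispersion taken from the 8 maternal libraries and shrunk with limma 3.58.1 on a depth trend. Named tiles were non-overlapping calls, the first 10 per direction by difference at each tile size, with called 100-bp tiles less than 500 bp apart joined (none were) and 1000-bp tiles kept single; where a direction had no call, the 5 lowest p; and the 5 deepest 1000-bp tiles at 25% or more in oocytes. The comparison, classes and rules were chosen with earlier results of these data known, and the position count, depth, WT and strand groupings after values were seen. Replicate numbers were not taken to pair the libraries. Deviations of replicate 1 from replicate 2 correlated at 0.0212 between mock and aphidicolin, over tiles at 90% or more in oocytes. Tile levels were only weakly shared between libraries, so this value cannot decide on pairing. By chromosome Y, replicate 1 was the higher in both treatments. No mm9 annotation or sequence was used here, so tiles are given by position.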

Additional observations from a re-analysis of the deposited data

Results flagged for a closer look

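In 8 tiles the treatment difference of CKO maternal pronuclei differed from that of WT maternal pronuclei by the interaction test of the quasi-binomial model. They were chosen after their values were seen. The tile at chr2:152460001-152461000 differed by -99.6 points: CKO mock had 35.9% and 93.2% and CKO aphidicolin 58.7% and 0%, while WT mock had 1.95% and 0% and WT aphidicolin 79.6% and 51.1%. Its 100-bp tile at chr2:152460301-152460400 differed by -100.5 points. Oocytes were at 1.39% or less in the former, so levels in several libraries lay far above the starting level. At chr17:29235001-29236000 the value was -55.9 points, from 1 CKO mock library at 56.0% and 1 WT aphidicolin library at 56.0%, with all others at 0.126% or less.

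In the other direction stood chr2:37648001-37649000 (74.7 points), chr2:149656001-149657000 (53.8), chr3:138106001-138107000 (96.0), chr11:83665001-83666000 (50.3) and chr11:83666001-83667000 (132.3). In the last, CKO mock had 7.11% and 0% and CKO aphidicolin 100% and 99.2%, and WT mock had 50.3% and 22.3% and WT aphidicolin 0% in both. Each of the 8 lost its call without at least 1 of the 8 libraries.

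Chromosome Y, outside the autosomal comparison, held 0.00297% and 0.000296% of calls in the CKO mock libraries and 0.00163% and 0.000093% in the CKO aphidicolin libraries, all above both oocyte libraries. Each WT maternal library was above both oocyte libraries too. The part of chromosome Y in the results was not tested.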

How the results depend on the processing

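The mean difference kept its direction in 11 of 11 alternatives (1.42 to 2.87 points). So did tiles methylated in both gametes in 10 of 10 (11.2 to 14.0) and tiles methylated in oocytes only in 10 of 10 (8.69 to 15.6). Part of this was fixed in advance. Where the groups do not overlap, leaving out 1 library cannot change the direction, and the replicate block repeats the mean difference by construction. No exact test of this design can pass 0.05. The sperm-only difference was 0.0697 points without aphidicolin replicate 2, the lowest leave-one-out value being -3.93; the difference in tiles unmethylated in both gametes ran from -0.452 to 0.237 points without single libraries and was 0.0759 with 4 or more positions per tile. The CKO minus WT difference ran from -1.78 to 1.05 points without single libraries, and chr13:120277001-120278000 ran from -6.18 to 2.12 points and changed sign without mock replicate 1 (0.12) or aphidicolin replicate 1 (2.12).

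Counts of called tiles, higher and lower with aphidicolin, moved with the model. For 100 bp they were 1 and 0 with the 4 libraries alone, 4 and 1 without tiles near 0% or 100%, 509 and 357 with limma on arcsine square roots and 0 and 0 with limma on log2 ratios, and without single libraries 1 to 4 higher. With dispersion from all groups with calls of both kinds they were 617 and 179, and with robust shrinkage 4 higher, both chosen after seeing the data. For 1000 bp they were 18 and 2, 740 and 514, 0 and 0 (log2 ratios), 581 and 133 and 21 and 2 under the same settings (the 4 libraries alone gave 8 and 1), and without single libraries 5 to 14 higher and 0 to 2 lower. The replicate block called 0 tiles at both sizes, in both directions, and gave a mean difference of 1.86 points over all positions. Whether equal replicate numbers mark libraries made together was not established, so no pairing is read from the block. Interaction calls without single libraries ran from 0 to 2 larger and 0 to 1 smaller in CKO for 100 bp, and from 0 to 6 and 1 to 4 for 1000 bp. Where a setting moved a count, the cause was not tested. In 100-bp tiles the median dispersion that the model used was 57.0 times counting error. The median of the tiles' own values was 26.1, from the 53678 of 107549 tiles that had one. With 2 libraries a group and either value, the precision of a tile is far below what its number of calls alone would give.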
